A study of Homo sapiens with 9 samples.

Results

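Interferon-stimulated genes were followed in HCT 116 cells, an established human colorectal cancer line, after transfection with plasmids. The members are a list of 44 genes chosen by name, and 43 of them were measured among the 17958 genes analysed. STAT2 was not analysed here. Of 3 groups with 3 arrays each, the first received KL-FL, a vector for full-length mouse klotho. The second received KL1, a vector for the KL1 subdomain of mouse klotho, and the third the empty control vector pcDNA3. RNA was taken 24 hours later and 100 ng of it was labelled for each whole-transcript array. Cells were transfected with JetPEI or Polyethylenimine, and the reagent of a given sample is not named. Every group received a plasmid and no group without one was analysed here, so the comparisons are between plasmids and the effect of transfection itself was not measured.

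Interferons are cytokines that cells release when they detect foreign nucleic acid, including DNA in the cytoplasm, which the sensor cGAS reads and passes on through STING. Type I interferon acts through its receptor and JAK kinases to form ISGF3, a complex that contains IRF9 and binds an interferon-stimulated response element in target promoters. The targets are antiviral proteins that sense viral RNA, block entry or translation, modify proteins with ISG15, or load peptides for antigen presentation.

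The core of that element reads GAAA, then any 2 bases, then GAAA. Searched on both strands, it was found in 26 of the 36 members that have a promoter window in the RefSeq table (72.2%), and in 4.38% of all 27305 genes there. A window runs from 250 bases before to 50 bases after an annotated start, and a gene counted once if any of its windows held the core. Promoters of 4 members are shown because the results return to them. ISG15 and IFIT1 are classical interferon targets, IFIT5 read lower in both klotho groups, and TRIM5 had the smallest p-value of the list in each comparison with control. The windows are from RefSeq on GRCh38.p14, run 5′ to 3′ along the gene, and carry each match, on either strand, in capitals.
ISG15 (chr1:1013247-1013546, + strand): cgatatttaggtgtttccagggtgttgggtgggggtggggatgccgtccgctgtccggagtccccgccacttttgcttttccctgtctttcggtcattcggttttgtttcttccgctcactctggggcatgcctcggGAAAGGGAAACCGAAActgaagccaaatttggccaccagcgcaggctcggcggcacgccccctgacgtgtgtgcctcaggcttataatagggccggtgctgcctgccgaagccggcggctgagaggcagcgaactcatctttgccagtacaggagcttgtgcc
IFIT1 (chr10:89392373-89392672, + strand): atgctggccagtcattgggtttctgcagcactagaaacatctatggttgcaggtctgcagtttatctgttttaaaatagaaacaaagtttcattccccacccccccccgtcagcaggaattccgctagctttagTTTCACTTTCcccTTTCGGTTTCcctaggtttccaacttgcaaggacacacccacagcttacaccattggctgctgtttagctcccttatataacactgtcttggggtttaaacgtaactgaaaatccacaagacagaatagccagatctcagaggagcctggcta
IFIT5 (chr10:89414318-89414617, + strand): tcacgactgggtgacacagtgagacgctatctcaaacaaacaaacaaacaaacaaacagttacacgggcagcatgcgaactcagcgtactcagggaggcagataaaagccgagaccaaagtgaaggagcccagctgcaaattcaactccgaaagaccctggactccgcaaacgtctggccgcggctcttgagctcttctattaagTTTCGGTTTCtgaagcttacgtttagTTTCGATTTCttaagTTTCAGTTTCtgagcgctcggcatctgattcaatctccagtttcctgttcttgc
TRIM5 (chr11:5685025-5685324, - strand): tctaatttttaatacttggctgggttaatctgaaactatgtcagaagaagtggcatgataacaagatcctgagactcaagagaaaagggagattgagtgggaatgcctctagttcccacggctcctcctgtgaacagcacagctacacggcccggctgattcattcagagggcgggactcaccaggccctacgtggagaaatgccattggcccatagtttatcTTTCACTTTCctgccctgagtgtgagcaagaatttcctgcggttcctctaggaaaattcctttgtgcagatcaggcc
The ISG15 window held 2 overlapping matches, starting 113 and 107 bases before the gene's start. The IFIT1 window held 2, starting 116 and 103 bases before the start, and the IFIT5 window 3, at 45, 19 and 4 bases. The TRIM5 window held 1, 27 bases before the start. A match describes the letters and not a working site. The 26 measured members with a match had a median log2 difference from control of -0.0083 with KL-FL and -0.0199 with KL1. For the 9 measured members whose windows held none, the medians were 0.0073 with KL-FL and -0.0145 with KL1.

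The deposited values are on a log2 scale, and 3 arrays per group limit the precision. Nothing in the labels says that replicates came from different cultures, and p-values then reflect only the spread among the arrays, which may be technical. KL-FL replicate 3 and KL1 replicate 2 stood apart, with median correlations to the other arrays of 0.997 and 0.998 over genes, against 0.999 for the rest. Epithelial markers had a median control value of 8.21, with 9 of 12 above the range of genes of other organs described next. Above it were 0 of 12 leukocyte, 0 of 5 plasmacytoid dendritic cell and 1 of 10 fibroblast and endothelial markers. The mean of the leukocyte list ran from 3.68 to 3.75 over the KL-FL arrays, from 3.71 to 3.75 over KL1 and from 3.69 to 3.72 over control.

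In control cells the interferon-stimulated genes ranged from SAMD9L at a mean log2 value of 2.67 to IFITM3 at 8.94, with a median of 5.11 where all genes had 5.39. The table has no detection call, so 30 genes of other organs, such as hormones, milk proteins and odorant receptors, served as a guide to the dim end. Their control means ran from 2.43 to 5.10 with a median of 3.18. Of the members, 21 of 43 read within that range, where 46.0% of all genes read at or below its top. Among the 21 were IFIT1, IFIT2, IFIT3, MX1, MX2, OAS1, OAS2, RSAD2, IFI44, IFI44L, IFIH1 and BST2. Above the range stood 22, including the RNA-activated kinase EIF2AK2 at 8.09, the secreted glycoprotein LGALS3BP at 8.89, IFITM2 at 8.29 and TRIM5 at 7.10. A dim reading cannot be told from no expression, a fold change of a dim gene is understated, and no order between genes is drawn because brightness differs between probe sets. The plot of member values by array shows how close the 3 groups lie in each gene.

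**Figure D1:**
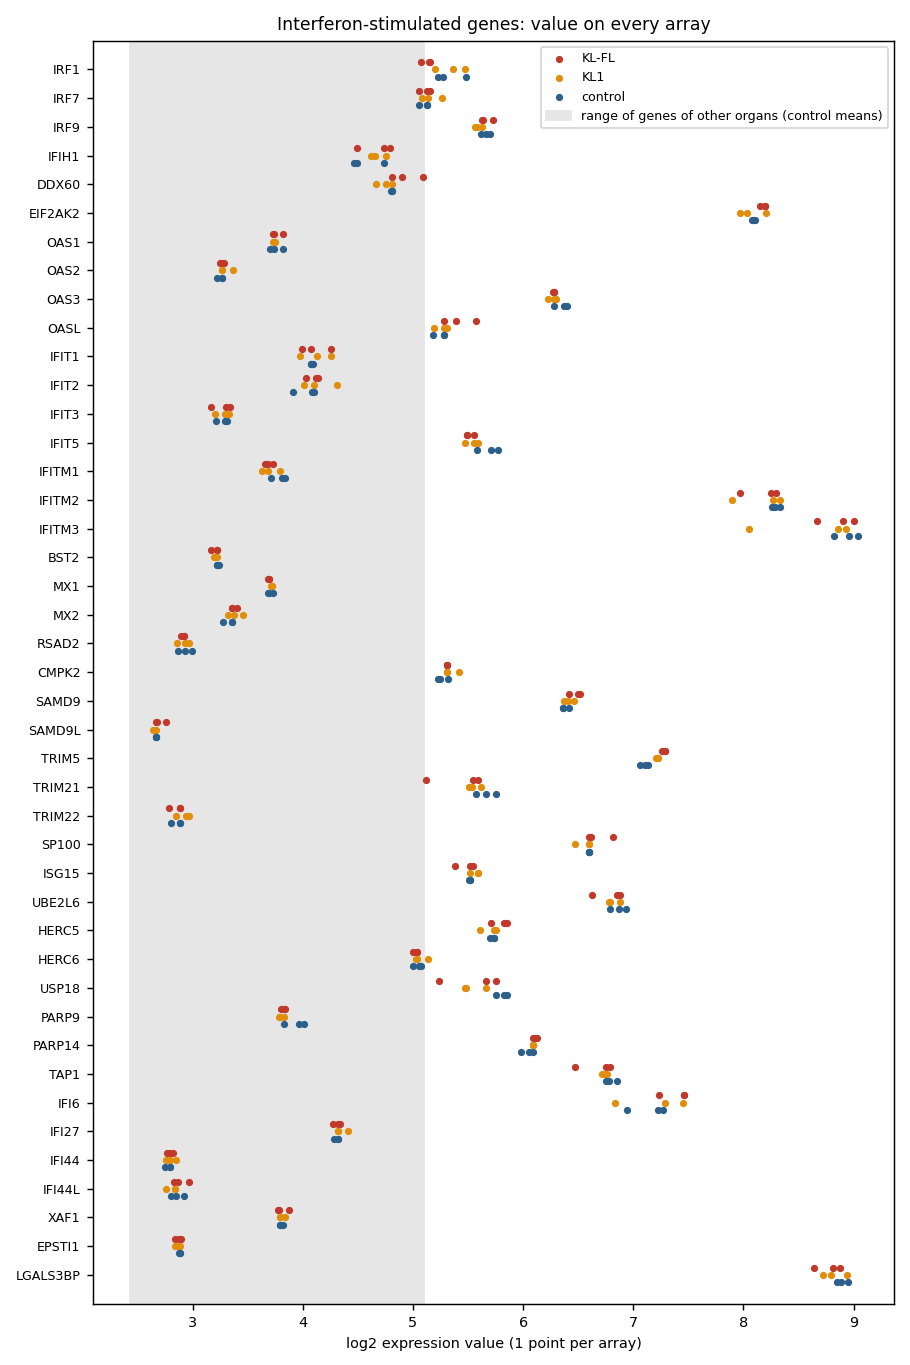
Log2 expression value (x axis) of each of the 43 measured interferon-stimulated genes (rows, by role), with 1 point per array for KL-FL, KL1 and control from top to bottom in each row. The grey band runs from 2.43 to 5.10, the range of control means of 30 genes of other organs. In control 21 members read within it, where 46.0% of all genes read at or below its top.

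With full-length klotho no interferon-stimulated gene passed the test. In limma 0 of 43 members were called at an adjusted p under 0.05, where 0.00557% of all genes were. The smallest adjusted p of a member was 0.408, for TRIM5, a capsid-binding restriction factor, which read 0.18 higher on the log2 scale or 1.13-fold. Members stayed close to control: their median difference was 0.0041, against 0.0099 for all genes, and 23 of 43 read higher, where 57.3% of all genes did. After quantile normalization 15 of 43 read higher, and the median over all genes was then -0.012. The median size of a difference was 0.064 for members and 0.041 for all genes.

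At an unadjusted p under 0.05 there were 6 members, where 7.16% of all genes passed. OASL, SAMD9 and TRIM5 read higher, where 4.88% of all genes passed in that direction, and IRF1, IFIT5 and PARP9 lower, where 2.28% did. Groups did not overlap in 4 of 43, where 10.4% of all genes did not. TRIM5 and EIF2AK2 read higher on all 3 KL-FL arrays than on any control (7.13% of all genes), and IRF1 and IFIT5 lower (3.25%). The count of 6 was 5 without KL-FL replicate 3 and 3 without control replicate 2. It was 7 under quantile normalization, 7 with the replicate number as a block and 8 with arrays centred on their medians. With array weights, which gave KL-FL replicate 1 a weight of 6.76 and KL-FL replicate 3 a weight of 0.265, limma called TRIM5 (difference 0.19, adjusted p = 0.0217) as 1 of 523 genes.

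The 95% intervals of the differences show which sizes of change the arrays leave room for. Between KL-FL and control all 43 members had an interval inside a 2-fold change in either direction, and 40 had one inside a log2 difference of 0.5. The exceptions were IFI6, with an upper bound of 0.58, and IFITM3 and USP18, with lower bounds of -0.55 and -0.53. The median half-width was 0.11. These intervals cover the spread between arrays and not the understated changes of dim genes.

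With the KL1 subdomain 0 of 43 members were called in limma at an adjusted p under 0.05, where 0.00557% of all genes were, and the smallest adjusted p was 0.927. The median difference was -0.011, against 0.0026 for all genes, and 21 of 43 members read higher, where 52.1% of all genes did. Differences had a median size of 0.048 among members and 0.037 among all genes. At an unadjusted p under 0.05 there were 3 members, where 5.1% of all genes passed. TRIM5 read higher, where 2.99% passed in that direction, and IFIT5 and PARP9 lower, where 2.11% did. The count was 5 without KL1 replicate 3, 5 with the replicate number as a block, 2 without control replicate 2 and 1 without control replicate 1. Groups did not overlap in 2 of 43, where 9.47% of all genes did not, with TRIM5 higher (5.13%) and USP18 lower (4.34%). All 43 intervals lay inside a 2-fold change and 41 inside 0.5, the exceptions being IFITM3 and USP18 with lower bounds of -0.80 and -0.54. Both comparisons use the same control arrays, so a gene on the same side in both is not 2 findings.

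KL-FL was also set against KL1. In limma 0 of 43 members were called at an adjusted p under 0.05, where 0% of all genes were, with 906 genes at an unadjusted p under 0.05. The smallest adjusted p of a member was 0.855, and the median difference was -0.0045, against 0.0058 for all genes. Differences had a median size of 0.037 among members and 0.038 among all genes. Of the members 20 of 43 read higher in KL-FL, where 54.4% of all genes did. After quantile normalization 13 of 43 members did, and the median over all genes was then -0.020. At an unadjusted p under 0.05, 2 members passed, where 5.05% of all genes did. DDX60 read 0.19 higher in KL-FL (3.49% of all genes passed in that direction), and IRF1 differed by -0.22 (1.55%). That count was 4 without KL-FL replicate 2, 5 without KL-FL replicate 3, 1 without KL1 replicate 2, 0 without KL1 replicate 3 and 9 with array weights. Groups did not overlap in 5 of 43, where 6.88% of all genes did not, with IRF9, DDX60 and TRIM5 higher (4.67%) and IRF1 and MX1 lower (2.21%). Intervals stayed inside a 2-fold change for all 43 and inside 0.5 for 41, the exceptions being IFITM3 and IFI6 with upper bounds of 0.72 and 0.54.

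**Figure D2:**
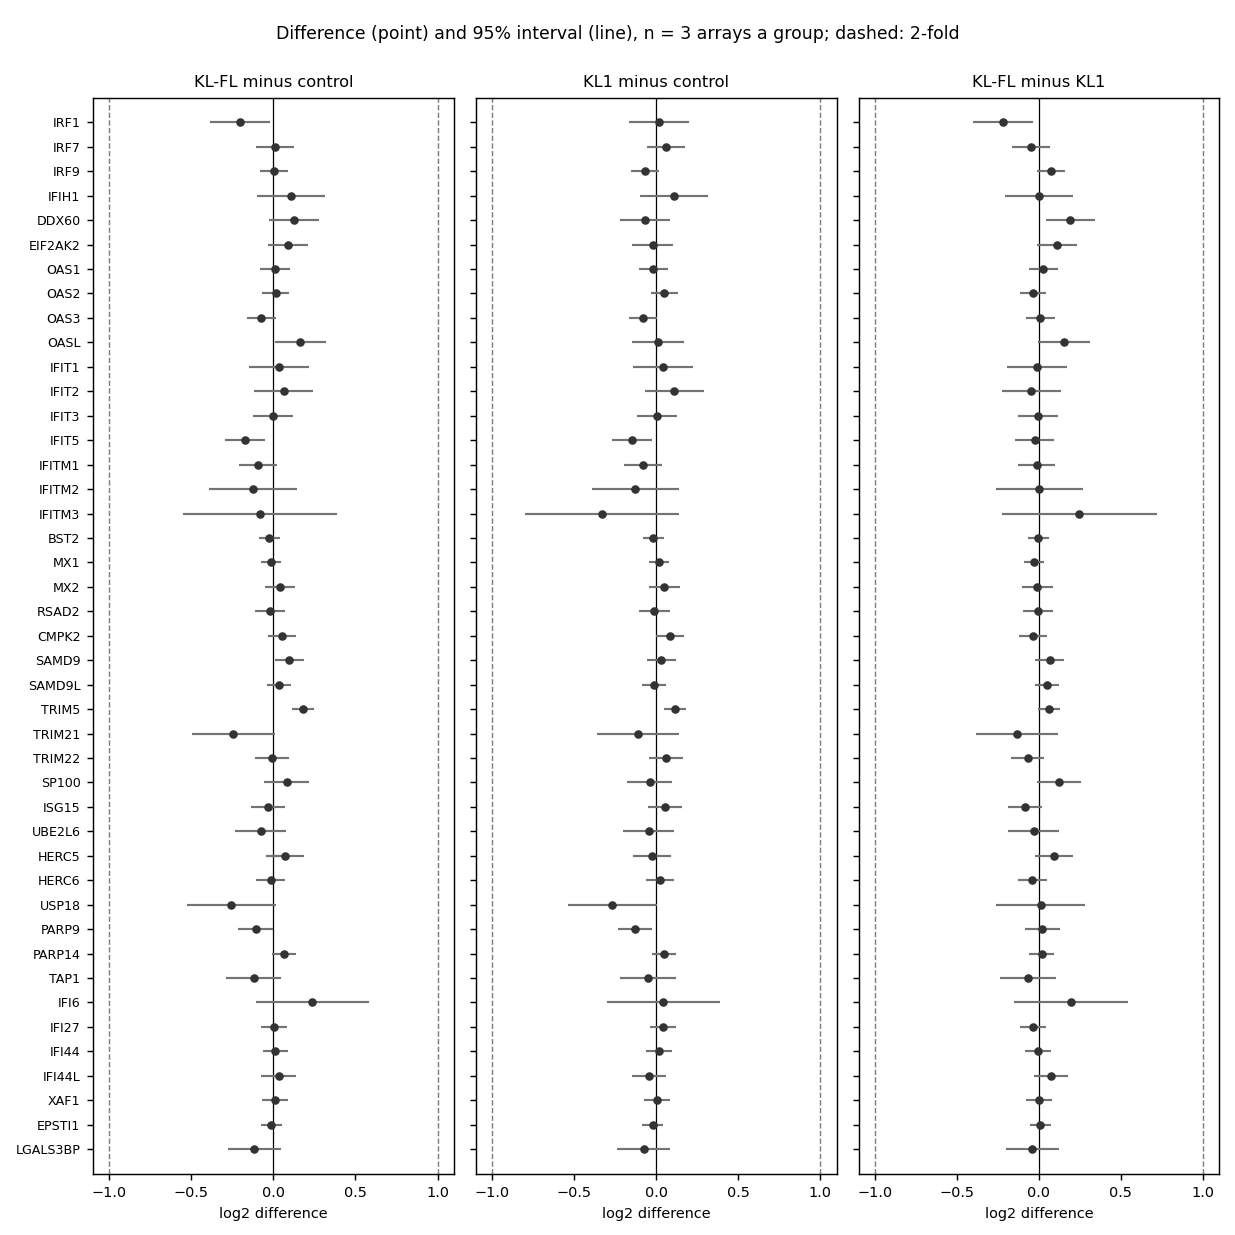
Log2 difference (point) with its 95% interval (line) for each of the 43 members in 3 comparisons (panels), from limma over 3 arrays a group. Every interval stays within a 2-fold change, and the widest is that of IFITM3.

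**Figure D3:**
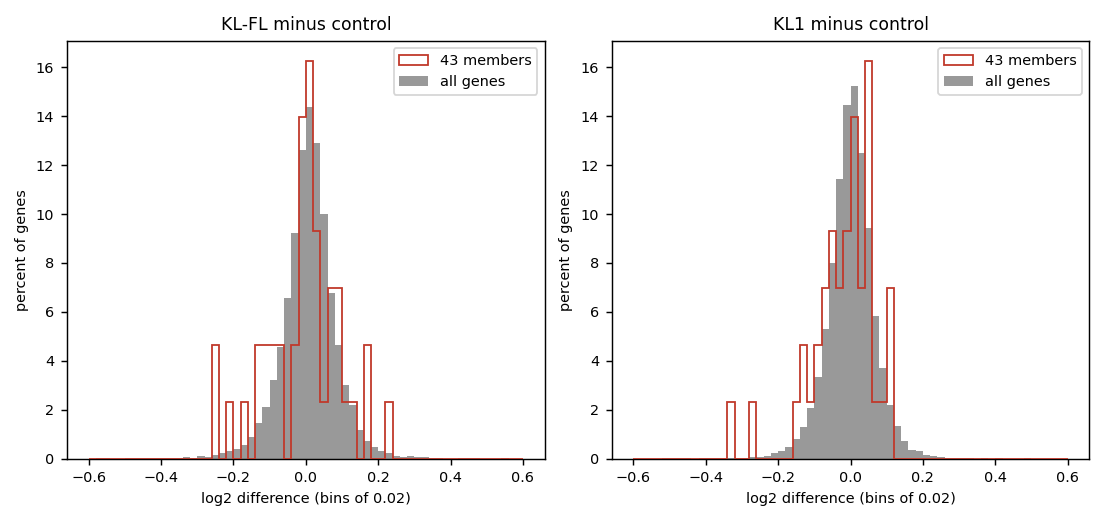
Share of genes (y axis) by log2 difference (x axis) for the 43 members and all 17958 genes, for KL-FL and for KL1 against control. Members centre near 0 with the other genes, at medians of 0.0041 and -0.011, and 13 and 4 genes lie outside the plotted limits of 0.6.

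Among the transcription factors, IRF1, an early interferon-induced activator, had log2 values of 5.07, 5.16 and 5.15 on the KL-FL arrays and 5.20, 5.47 and 5.36 on the KL1 arrays, against 5.23, 5.48 and 5.28 on the control arrays. All KL-FL arrays read below every KL1 and every control array, while KL1 and control overlapped. KL-FL differed from control by -0.21 (SE 0.081), adjusted p = 0.688 in limma, and by -0.13 without control replicate 2, the brightest control. IRF9, the DNA-binding part of ISGF3, had 5.64, 5.62 and 5.72 on the KL-FL arrays and 5.56, 5.58 and 5.62 on the KL1 arrays, against 5.70, 5.66 and 5.62 on the control arrays. Its KL-FL arrays overlapped the controls, with a difference of 0.0041 that turns to -0.0030 when arrays are centred on their medians. KL1 differed from control by -0.069 in IRF9. A probe set naming both RNF31 and IRF9 differed by 0.090 (SE 0.044) with KL-FL and by 0.047 with KL1. IRF7, which amplifies interferon production, differed by 0.010 with KL-FL, a sign that turns under quantile normalization, and by 0.059 with KL1.

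Of the RNA sensors and their relatives, IFIH1, the double-stranded RNA sensor MDA5, had 4.74, 4.79 and 4.49 on the KL-FL arrays and 4.65, 4.62 and 4.75 on the KL1 arrays, against 4.73, 4.46 and 4.49 on the control arrays. The groups overlapped, and its pooled SD of 0.13 was among the 6 largest of the list. DDX60, a helicase linked to RNA sensing, had 4.90, 4.81 and 5.09 on the KL-FL arrays and 4.81, 4.76 and 4.67 on the KL1 arrays, against 4.81, 4.81 and 4.81 on the control arrays. The KL-FL arrays read above the KL1 arrays by 0.19 (SE 0.067), adjusted p = 0.855, and by 0.11 without KL-FL replicate 3, the brightest array. EIF2AK2, the kinase PKR that halts translation when it binds double-stranded RNA, had 8.15, 8.19 and 8.20 on the KL-FL arrays and 8.20, 7.97 and 8.03 on the KL1 arrays, against 8.08, 8.10 and 8.09 on the control arrays. The KL-FL arrays lay above all controls by a mean of 0.089 (SE 0.054), adjusted p = 0.729, and KL1 spanned both groups.

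The oligoadenylate synthetases make the messenger that activates RNase L. OAS1 had 3.82, 3.73 and 3.74 on the KL-FL arrays and 3.74, 3.73 and 3.75 on the KL1 arrays, against 3.71, 3.82 and 3.74 on the control arrays, and the groups overlapped. OAS2 differed from control by 0.013 with KL-FL and 0.050 with KL1, and the KL-FL signs of OAS1 and OAS2 turn under quantile normalization. OAS3 had 6.28, 6.28 and 6.27 on the KL-FL arrays and 6.28, 6.30 and 6.23 on the KL1 arrays, against 6.37, 6.40 and 6.28 on the control arrays. Control replicate 3 lay among the klotho arrays and the other controls above them, with differences of -0.073 with KL-FL and -0.081 with KL1 (SE 0.038 each). OASL, a relative without synthetase activity that aids the sensor RIG-I, had 5.39, 5.57 and 5.28 on the KL-FL arrays and 5.19, 5.31 and 5.28 on the KL1 arrays, against 5.28, 5.19 and 5.28 on the control arrays. KL-FL differed from control by 0.16 (SE 0.069), adjusted p = 0.689, and by 0.086 without KL-FL replicate 2, the brightest array, while KL1 differed by 0.011.

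IFIT proteins bind viral RNA at its 5′ end. IFIT1, whose window above has 2 matches, had 4.08, 4.26 and 3.99 on the KL-FL arrays and 4.26, 4.13 and 3.97 on the KL1 arrays, against 4.07, 4.09 and 4.07 on the control arrays. The controls lay close together, KL-FL and KL1 spread on both sides of them, and the KL-FL difference of 0.032 turns sign under quantile normalization. IFIT3 had 3.17, 3.34 and 3.30 on the KL-FL arrays and 3.33, 3.20 and 3.30 on the KL1 arrays, against 3.31, 3.21 and 3.30 on the control arrays. Its groups overlapped, with differences of -0.0031 with KL-FL and 0.0039 with KL1, the second of which turns sign under both other scalings. IFIT2 differed by 0.063 with KL-FL, or 0.0020 without control replicate 3, and by 0.11 with KL1, or 0.025 without KL1 replicate 2. IFIT5, whose window has 3 matches, had 5.49, 5.55 and 5.49 on the KL-FL arrays and 5.48, 5.55 and 5.59 on the KL1 arrays, against 5.70, 5.78 and 5.58 on the control arrays. All KL-FL arrays read below every control, and 1 KL1 array lay just above the dimmest control. The differences were -0.17 with KL-FL (SE 0.053, adjusted p = 0.669) and -0.15 with KL1 (SE 0.053, adjusted p = 0.927).

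The membrane antivirals are the IFITM proteins, which block fusion of viruses with the cell, and BST2, which tethers budding virus. All 4 read below control on average in both klotho groups under all 3 scalings, with 0 of 4 past the test. Of all genes, as deposited, 57.3% read higher with KL-FL and 52.1% with KL1. But the signs of IFITM2 with KL1 and of IFITM3 with KL-FL each depend on a single array, as given below. The other differences of these genes from control shrink without a single array. IFITM1 and BST2 read within the dim range. Differences ran from -0.12 to -0.025 with KL-FL and from -0.33 to -0.019 with KL1. IFITM1 had 3.65, 3.69 and 3.73 on the KL-FL arrays and 3.68, 3.63 and 3.80 on the KL1 arrays, against 3.71, 3.81 and 3.83 on the control arrays. IFITM2 had 8.25, 8.29 and 7.96 on the KL-FL arrays and 8.33, 7.89 and 8.26 on the KL1 arrays, against 8.26, 8.28 and 8.33 on the control arrays. The 2 lowest IFITM2 values were on KL1 replicate 2 and KL-FL replicate 3, and the other arrays lay between 8.25 and 8.33. Its difference from control was -0.12 with KL-FL, or -0.023 without KL-FL replicate 3. With KL1 it was -0.13, or 0.0079 without KL1 replicate 2. IFITM3 had 8.90, 9.00 and 8.67 on the KL-FL arrays and 8.93, 8.05 and 8.85 on the KL1 arrays, against 9.04, 8.82 and 8.96 on the control arrays. KL1 replicate 2 was the lowest by far, and the pooled SD of 0.31 was the largest of the list. The KL1 difference of IFITM3 was -0.33 (SE 0.21), or -0.048 without KL1 replicate 2. Its KL-FL difference of -0.084 was 0.012 without KL-FL replicate 3. IFITM1, IFITM2 and IFITM3 are close paralogues, so the split of signal between them is uncertain.

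MX1, a dynamin-like GTPase that traps viral nucleocapsids, had 3.68, 3.70 and 3.69 on the KL-FL arrays and 3.72, 3.71 and 3.72 on the KL1 arrays, against 3.73, 3.68 and 3.70 on the control arrays. Its pooled SD of 0.015 was the lowest of the list, and all 9 arrays lay within the dim range. MX2 differed from control by 0.040 with KL-FL and 0.049 with KL1. RSAD2, viperin, which makes a chain-terminating nucleotide, differed by -0.019 with KL-FL and -0.011 with KL1. CMPK2, a nucleotide kinase, had 5.31, 5.31 and 5.31 on the KL-FL arrays and 5.31, 5.41 and 5.31 on the KL1 arrays, against 5.24, 5.31 and 5.23 on the control arrays. The same value stood on 5 of its arrays, and KL1 differed from control by 0.084 (SE 0.038), adjusted p = 0.927, or by 0.051 without KL1 replicate 2.

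Of the restriction factors, TRIM5, which recognises retroviral capsids, had 7.29, 7.26 and 7.29 on the KL-FL arrays and 7.22, 7.21 and 7.22 on the KL1 arrays, against 7.13, 7.06 and 7.11 on the control arrays. Every KL-FL array read above every KL1 array, and every KL1 array above every control. KL-FL differed from control by 0.18 (SE 0.030, interval 0.11 to 0.25), adjusted p = 0.408 in limma. KL1 differed from control by 0.12 (interval 0.050 to 0.18), adjusted p = 0.927. Leaving out each array in turn kept the KL-FL difference between 0.16 and 0.20, with adjusted p from 0.267 to 0.887. TRIM21, an antibody receptor in the cytoplasm, had 5.54, 5.59 and 5.12 on the KL-FL arrays and 5.53, 5.61 and 5.51 on the KL1 arrays, against 5.66, 5.76 and 5.57 on the control arrays. KL-FL replicate 3 was the lowest, and the KL-FL difference was -0.25 (SE 0.11), adjusted p = 0.697, or -0.097 without that array. TRIM22, within the dim range, differed by -0.0078 with KL-FL and 0.061 with KL1. Its other, dimmer probe set differed by 0.036 with KL-FL and -0.0051 with KL1, with both signs opposite.

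SAMD9, which restricts poxviruses, had 6.50, 6.52 and 6.42 on the KL-FL arrays and 6.46, 6.41 and 6.37 on the KL1 arrays, against 6.36, 6.42 and 6.36 on the control arrays. KL-FL differed from control by 0.097 (SE 0.039), adjusted p = 0.688, and the lowest KL-FL array equalled the highest control. Its paralogue SAMD9L, within the dim range, differed by 0.033 with KL-FL and -0.014 with KL1. SP100, a component of PML nuclear bodies, had 6.62, 6.59 and 6.81 on the KL-FL arrays and 6.59, 6.47 and 6.59 on the KL1 arrays, against 6.59, 6.59 and 6.59 on the control arrays. The same value stood on 6 of its arrays, all controls among them. The KL-FL difference of SP100 was 0.080 (SE 0.060), or 0.010 without KL-FL replicate 3, its brightest array.

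ISG15 is a ubiquitin-like protein that UBE2L6 and HERC5 attach to other proteins and USP18 removes. ISG15 itself had 5.55, 5.52 and 5.38 on the KL-FL arrays and 5.52, 5.59 and 5.59 on the KL1 arrays, against 5.52, 5.51 and 5.52 on the control arrays. KL-FL replicate 3 was lowest, the controls lay close together, and the differences were -0.034 with KL-FL and 0.053 with KL1 (SE 0.046 each). The same value stood on 4 of the ISG15 arrays, control replicates 1 and 3 among them. Without KL-FL replicate 3 the KL-FL difference of ISG15 was 0.018, with the sign turned. The conjugating enzyme UBE2L6 differed by -0.079 with KL-FL, or -0.0012 without KL-FL replicate 3, and by -0.046 with KL1, or -0.012 without control replicate 2. The ligase HERC5 differed by 0.068 and its relative HERC6 by -0.017 with KL-FL, and by -0.025 and 0.023 with KL1. USP18, which also blocks signalling from the interferon receptor, had 5.75, 5.66 and 5.24 on the KL-FL arrays and 5.48, 5.47 and 5.67 on the KL1 arrays, against 5.85, 5.82 and 5.75 on the control arrays. All KL1 arrays read below every control, with a mean difference of -0.27 (SE 0.12). KL-FL differed by -0.26, adjusted p = 0.700, or by -0.10 without KL-FL replicate 3. A probe set that names USP18 together with USP41P differed by -0.17 (SE 0.093) with KL-FL and by -0.065 with KL1.

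PARP9, which pairs with DTX3L in interferon signalling and DNA repair, had 3.83, 3.84 and 3.80 on the KL-FL arrays and 3.79, 3.83 and 3.79 on the KL1 arrays, against 3.97, 4.01 and 3.83 on the control arrays. Control replicate 3 lay among the klotho arrays and the other controls above them. KL-FL differed from control by -0.11 (SE 0.047), adjusted p = 0.695, and KL1 by -0.13, adjusted p = 0.927. Without control replicate 2 the KL-FL difference of PARP9 was -0.072. A probe set naming both PARP9 and DTX3L differed by 0.028 with KL-FL and -0.084 with KL1. PARP14, a relative, differed by 0.064 with KL-FL and 0.048 with KL1. TAP1, which brings peptides to MHC class I, had 6.75, 6.79 and 6.47 on the KL-FL arrays and 6.77, 6.74 and 6.71 on the KL1 arrays, against 6.85, 6.75 and 6.78 on the control arrays. KL-FL replicate 3 was its lowest array, the groups overlapped, and the differences were -0.12 (SE 0.075) with KL-FL and -0.053 with KL1. The KL-FL difference of TAP1 was -0.022 without KL-FL replicate 3, and the KL1 difference -0.025 without control replicate 1.

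Of the remaining members IFI6, an interferon-inducible antiviral protein, had 7.46, 7.46 and 7.23 on the KL-FL arrays and 7.45, 6.83 and 7.29 on the KL1 arrays, against 7.23, 6.94 and 7.27 on the control arrays. KL1 replicate 2 and control replicate 2 were lowest, and the groups overlapped. KL-FL differed from control by 0.24 (SE 0.15), adjusted p = 0.736, or by 0.13 without control replicate 2. The KL1 difference of IFI6 was 0.044, or 0.22 without KL1 replicate 2, -0.086 without KL1 replicate 1 and -0.059 without control replicate 2. LGALS3BP differed by -0.12 with KL-FL, or -0.050 without KL-FL replicate 3, and by -0.077 with KL1, or -0.027 without KL1 replicate 2. IFI27, IFI44, IFI44L, XAF1 and EPSTI1, all within the dim range, differed by -0.013 to 0.031 with KL-FL and by -0.045 to 0.040 with KL1. The KL-FL signs of IFI27, IFI44 and XAF1 turn under quantile normalization.

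**Figure D4:**
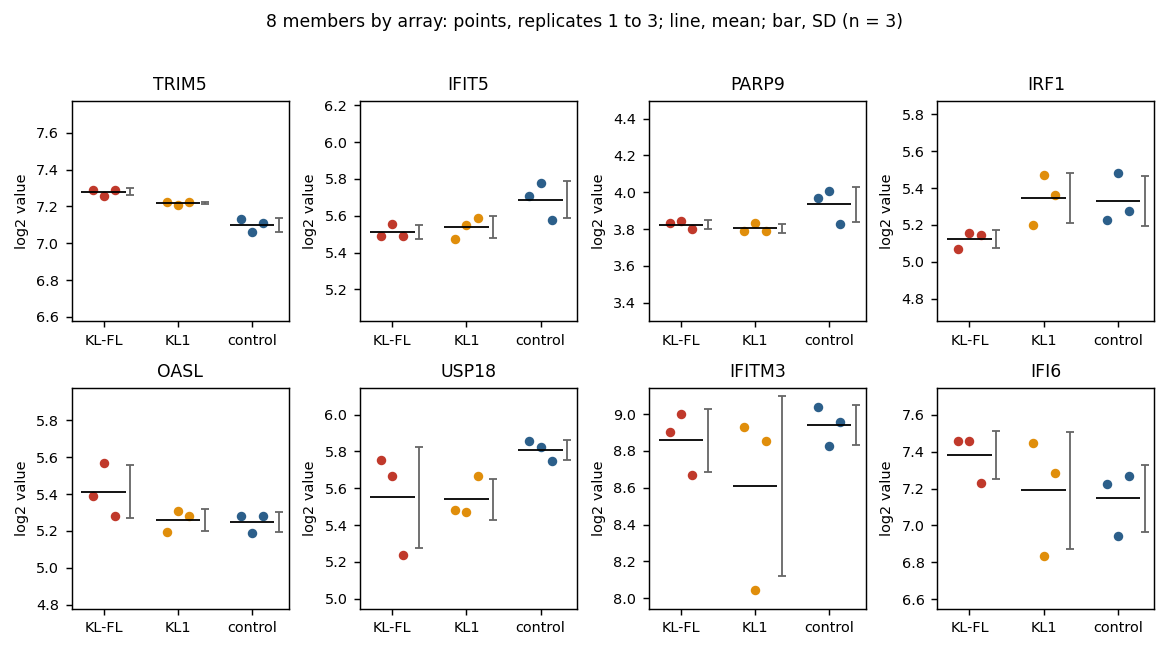
Log2 value (y axis) by group for 8 members: points are arrays, lines are means and bars are SDs (n = 3). TRIM5 groups are separate but close, while the KL1 values of IFITM3 and IFI6 include a low point, replicate 2.

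Within groups the members varied much as other genes did, with a median pooled SD of 0.059 against 0.061 for all genes. Identical values on 3 or more arrays occurred in 18 of 43 members (41.9%) and in 44.1% of all genes. DDX60, OASL and OAS3 each had the same value on 3 arrays, controls among them. Such repeats narrow the measured spread, and their part in the p-values was not tested. KL-FL replicate 3 held the lowest value of 10 members (23.3%), where it held the lowest of 23.9% of all genes. KL1 replicate 2 held that of 8 members (18.6%), where it held the lowest of 12.1% of all genes. TRIM21, USP18, TAP1, UBE2L6, LGALS3BP and ISG15 read lowest on KL-FL replicate 3, while DDX60 and SP100 read highest there. IFITM2, IFITM3, IFI6 and EIF2AK2 read lowest on KL1 replicate 2. When each array was left out in turn, the sign of the log2 difference turned at least once in 15 of 43 members for KL-FL against control. It turned in 13 of 43 for KL1 against control and in 21 of 43 for KL-FL against KL1.

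**Figure D5:**
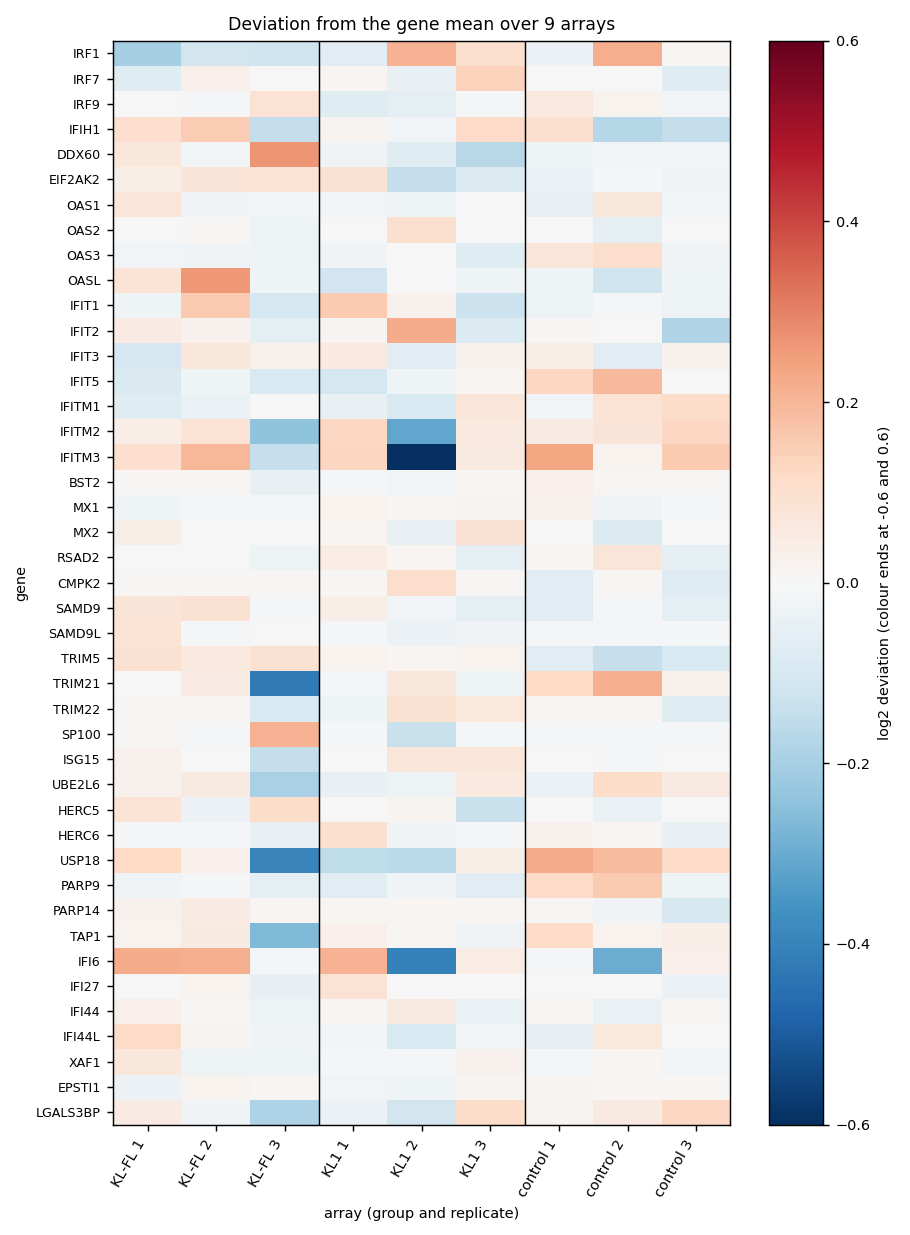
Log2 deviation of each member (rows) from its own mean over the 9 arrays (columns; red above, blue below, colour ends at 0.6). KL-FL replicate 3 and KL1 replicate 2 hold the lowest values of 10 and 8 members, and IFITM3 on KL1 replicate 2 is the darkest blue.

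The rest of the interferon pathway was read from 5 further lists holding 110 genes, of which 98 were measured. In limma 0 of 98 passed at an adjusted p under 0.05 in any of the 3 comparisons. At an unadjusted p under 0.05 there were 2 with KL-FL and 2 with KL1, where 7.16% and 5.1% of all genes passed. Groups did not overlap in 8 of 98 with KL-FL and 7 of 98 with KL1, where 10.4% and 9.47% of all genes did not. The medians of the lists lay between -0.0059 and 0.019 with KL-FL and between -0.030 and 0.013 with KL1.

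IFNB1, the first interferon that many cells make, had 2.86, 2.81 and 2.80 on the KL-FL arrays and 2.75, 2.61 and 2.84 on the KL1 arrays, against 2.75, 2.76 and 2.77 on the control arrays. KL-FL lay above all controls (7.13% of all genes) by a mean of 0.063 (SE 0.052, adjusted p = 0.776 in limma), at the level of genes of other organs. IFNL1, a type III interferon, differed by 0.14 (SE 0.063, adjusted p = 0.695) with KL-FL and 0.052 with KL1. Without control replicate 2, the dimmest array, IFNL1 differed by 0.075 with KL-FL and by -0.018 with KL1. IFNA10 differed by 0.083 with KL-FL and 0.040 with KL1. Of 14 measured interferons 8 read higher with KL-FL and 10 with KL1, where 57.3% and 52.1% of all genes did, and 0 were called. Their differences ran from -0.059 to 0.28 with KL-FL and from -0.071 to 0.064 with KL1.

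Among the 15 sensing and relay genes 0 were called. RIGI, which detects viral RNA, had 5.46, 5.56 and 5.64 on the KL-FL arrays and 5.34, 5.46 and 5.46 on the KL1 arrays, against 5.48, 5.36 and 5.35 on the control arrays. The groups overlapped, and the KL-FL difference was 0.15 (SE 0.057), adjusted p = 0.688. STING1 had 6.09, 6.06 and 5.93 on the KL-FL arrays and 6.03, 5.88 and 6.02 on the KL1 arrays, against 6.26, 6.14 and 6.04 on the control arrays. All KL1 arrays lay below the controls (4.34% of all genes), with a difference of -0.17 (SE 0.069), adjusted p = 0.927 in limma. KL-FL differed by -0.12 in STING1, or by -0.063 without control replicate 1. CGAS differed by -0.035 with KL-FL and -0.021 with KL1, and IRF3, the factor that STING activates, by -0.044 with KL-FL, or 0.0050 without KL-FL replicate 3, and by -0.028 with KL1.

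Of 16 measured receptor and JAK-STAT genes 0 were called. With KL-FL 7 of them read higher and with KL1 5, where 57.3% and 52.1% of all genes did. The medians of that list were -0.0059 and -0.030, so the 2 genes named next do not stand for it. JAK1, a kinase of interferon receptors, differed by 0.067 with KL-FL and 0.088 with KL1. CISH, an inhibitor of cytokine signalling, differed by 0.048 with KL-FL and 0.089 with KL1. Of 24 genes of interferon-gamma and antigen presentation 0 were called, and 15 read higher with KL-FL and 13 with KL1. The tRNA synthetase WARS1 differed by 0.073 with KL-FL, or 0.015 without KL-FL replicate 2, and by 0.14 with KL1, or 0.084 without KL1 replicate 1, and the guanylate-binding protein GBP3 by 0.045 with KL-FL and 0.080 with KL1. CXCL10, a chemokine used to read interferon responses, had 2.65, 2.62 and 2.68 on the KL-FL arrays and 2.61, 2.61 and 2.67 on the KL1 arrays, against 2.61, 2.60 and 2.54 on the control arrays. All klotho arrays lay above the controls, by means of 0.069 with KL-FL and 0.048 with KL1, at the dim end of the scale. Of all genes 7.13% separated in that direction with KL-FL and 5.13% with KL1. Of 29 further interferon-stimulated genes 0 were called, with SLFN5 at 0.090 and PML at 0.044 with KL-FL, and at 0.097 and -0.11 with KL1.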

How the data were processed

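The authors deposited log2 expression values for 33297 probe sets on 9 arrays. The submitters' processing notes name Partek 6.6; how signals were corrected and summarised is not given in the sources used here; the log base was read from the range. Probe sets naming 1 gene, 19181 in all, were kept, the brightest standing for a gene, which gave 17958 genes. The members and lists were chosen with earlier results of these data known. TRIM22 has 2 probe sets and TAP1 has 3, and those naming several genes were left out.

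A linear model with 3 groups was fitted to all genes with limma 3.58.1 in R 4.3.3, and tested on simulated data. Tests were two-sided, with p adjusted over all 17958 genes by Benjamini-Hochberg and a threshold of 0.05, and intervals are at 95%. Values on every array are given for 6 members of smallest p per comparison, the 6 of largest pooled SD, a fixed set (ISG15, IFIT1, MX1, OAS1, IFI6, IFIT3, IRF9, IRF1, IFITM1) and at least 1 member per role; in each further list the 2 genes of smallest p against control are named, and IFNB1, IRF3, CXCL10, RIGI, CGAS and STING1.

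Replicate numbers 1 to 3 recur in each group. Same-numbered control and KL1 arrays deviated together (correlations 0.113 to 0.322 over genes), so the numbers may pair them. Those with KL-FL did not exceed 0.097. The main fit leaves such pairing out, and the fit blocked on replicate number also blocked the KL-FL arrays. KL1 and control arrays alone were not tested as pairs. Alternatives were scaling, a filter on dim genes, probe sets, variance, array weights, the arrays fitted, the block and leaving out each array.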

Additional observations from a re-analysis of the deposited data

How the results depend on the processing

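Under all alternatives run 0 members were called in KL1 against control and in KL-FL against KL1, and 0 in KL-FL against control except with array weights, which called 1 (TRIM5). The counts of all genes called, 1, 1 and 0 in KL-FL against control, KL1 against control and KL-FL against KL1, moved to 523, 2 and 1 with array weights. With every probe set tested they were 0 and 0 in the comparisons with control. With each gene's own variance they were 0, 0 and 1, and with only the 6 arrays compared the KL-FL count was 0. In the fit blocked on replicate number 0 genes were called in both comparisons with control, and no member's call changed. Without 1 array the counts ranged from 0 to 1 in both comparisons with control. The median of members, 0.0041, -0.011 and -0.0045, was -0.053, -0.049 and 0.014 among the 18 members at or above the 50th percentile of brightness, where fewer members are counted. Under quantile normalization it was -0.026 in KL-FL against control and -0.024 in KL-FL against KL1. The median over all genes was then -0.012 and -0.020. With array weights the median of members was 0.020 in KL-FL against KL1. The causes were not tested. Without 1 array the median ranged from -0.012 to 0.018 in KL-FL against control, from -0.022 to -0.0040 in KL1 against control and from -0.015 to 0.026 in KL-FL against KL1. With centred arrays it was -0.0030 in KL-FL against control, so the sign of that median is not settled. The baseline median of 5.11 ran from 5.09 to 5.13. Of 445 log2 differences of the 24 named members per comparison under these settings, 17, 18 and 27 turned sign, and 0 of those were at an unadjusted p under 0.05 as deposited. Many of the 445 could not turn. Settings of variance, filter or block, and leaving out an array of the third group, do not change a difference of group means. By member, 6, 8 and 12 of the 24 turned sign in at least 1 setting. The counts at an unadjusted p, and the values without 1 array for genes outside those 24, were added after seeing the data: under further settings they were 3 in KL-FL against control with each gene's own variance or among the brighter 18, and 15 with array weights, 5 in KL1 against control with centred arrays, and 0 in KL-FL against KL1 among the brighter 18.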
